A study of Mus musculus with 44 samples.

Results

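Strains of the BXD mouse panel fell into 2 groups by the level of Ctse, the gene of cathepsin E, in blood-forming stem and progenitor cells. A strain was low-Ctse when the mean log2 intensity of probe set 104696_at over its 2 arrays was under 8.8, with intensities under 16 set to 16, and high-Ctse otherwise, so the members were chosen by a measured level. BXD40 and BXD42 were left out, which left 20 of 22 strains and 40 of 44 arrays: 12 low-Ctse strains on 24 arrays and 8 high-Ctse strains on 16 arrays. The low-Ctse strains were BXD1, BXD2, BXD8, BXD9, BXD12, BXD14, BXD16, BXD18, BXD19, BXD21, BXD31 and BXD38. The high-Ctse strains were BXD5, BXD6, BXD11, BXD28, BXD32, BXD33, BXD34 and BXD39.

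BXD strains are recombinant inbred lines that descend from C57BL/6 and DBA/2 parents, so every strain carries its own fixed mixture of the parental genomes and no strain received a treatment or a transgene. Marrow of 3 female mice aged 3 to 6 months was pooled for each sample, and cells with Sca-1 and c-kit but low in lineage markers (the dimmest 5%) were sorted. RNA was measured on Affymetrix MG_U74Av2 arrays, on which sets of short probes are designed to report given transcripts. The labels number the arrays in 2 series, here called A and B, with both arrays of a strain always in the same one. Series A held 4 low-Ctse and 4 high-Ctse strains, and series B held 8 low-Ctse and 4 high-Ctse strains.

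Cathepsin E is an aspartic protease of endosomes, and it has been studied in antigen-presenting cells, in gastric epithelium and in red cell precursors. The C57BL/6J parent has been described as deficient in cathepsin E in cells of the immune system. In a recombinant inbred panel, genes on the same stretch of chromosome are mostly inherited together, so strains that share an allele of one gene often share alleles of its neighbours. Genotypes of the strains were not analysed here, and neither group is assigned to a parent.

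To show the promoters of the genes that were called between the groups, the 250 bases before the annotated start were taken from RefSeq (build GRCm38.p6). Of the called genes, Csrp1 has 2 entries in that table and Aldh9a1 has 1, all on the plus strand of chromosome 1. Capitals mark matches, on either strand, to the CCAAT motif, the TATAAA motif or the GGGCGG motif.
Csrp1, upstream of the start that lies further along the chromosome, chr1:135728917-135729166: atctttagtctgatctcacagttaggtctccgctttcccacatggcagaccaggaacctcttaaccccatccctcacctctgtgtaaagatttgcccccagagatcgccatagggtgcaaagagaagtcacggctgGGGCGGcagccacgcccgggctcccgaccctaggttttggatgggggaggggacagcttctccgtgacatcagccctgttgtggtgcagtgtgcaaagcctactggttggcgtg
Csrp1, upstream of the other start, chr1:135719813-135720062: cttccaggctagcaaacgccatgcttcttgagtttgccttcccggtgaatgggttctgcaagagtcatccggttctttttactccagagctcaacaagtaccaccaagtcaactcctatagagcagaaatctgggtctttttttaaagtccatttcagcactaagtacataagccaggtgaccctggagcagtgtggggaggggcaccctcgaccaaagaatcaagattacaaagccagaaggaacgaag
Aldh9a1, chr1:167349741-167349990: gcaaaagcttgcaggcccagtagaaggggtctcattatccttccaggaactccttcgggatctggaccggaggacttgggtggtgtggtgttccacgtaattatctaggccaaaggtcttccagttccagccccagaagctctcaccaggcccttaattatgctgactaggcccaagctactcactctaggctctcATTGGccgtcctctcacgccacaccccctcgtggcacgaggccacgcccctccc
The first Csrp1 window held 1 match to GGGCGG, a motif present in 32.7% of all promoter windows of that length. The second Csrp1 window held none of these letters. The Aldh9a1 window held 1 match to CCAAT, read on the opposite strand, a motif present in 33.8% of the windows, while TATAAA was present in 12.4%. The sequences are those of the C57BL/6J reference, and the DBA/2 alleles were not analysed here.

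The Ctse probe set chose the groups, so its values are a description. In deposited intensity, the 24 arrays of low-Ctse strains had 108.9 as the lowest, 195.8 as the median and 263.8 as the highest value, and the 16 arrays of high-Ctse strains had 646.4, 1048 and 1403 in the same order. No array of one group reached the range of the other, and both arrays of all 20 strains lay on the same side of the threshold. Strain means averaged 7.58 ± 0.31 (SD, n = 12) in low-Ctse strains and 10.03 ± 0.28 (SD, n = 8) in high-Ctse strains on the log2 scale of deposited intensities, a 5.45-fold difference. The low-Ctse strain just inside the threshold was BXD12, with 7.99 and 8.04 on its arrays, and the high-Ctse strain just outside it was BXD32, with 9.80 and 9.34. A gap of 1.55 separated the means of these strains. The median SD between the arrays of a strain was 0.23, taken over all 22 strains with BXD40 and BXD42 included. Within series A the low-Ctse and high-Ctse means were 7.62 ± 0.43 and 9.96 ± 0.30 (SD, n = 4 each), and within series B they were 7.57 ± 0.27 (n = 8) and 10.10 ± 0.29 (n = 4). Among the low-Ctse strains BXD21 (6.98) and BXD38 (7.04) had the smallest means, and among the high-Ctse strains BXD39 had the largest (10.39).

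**Figure D1:**
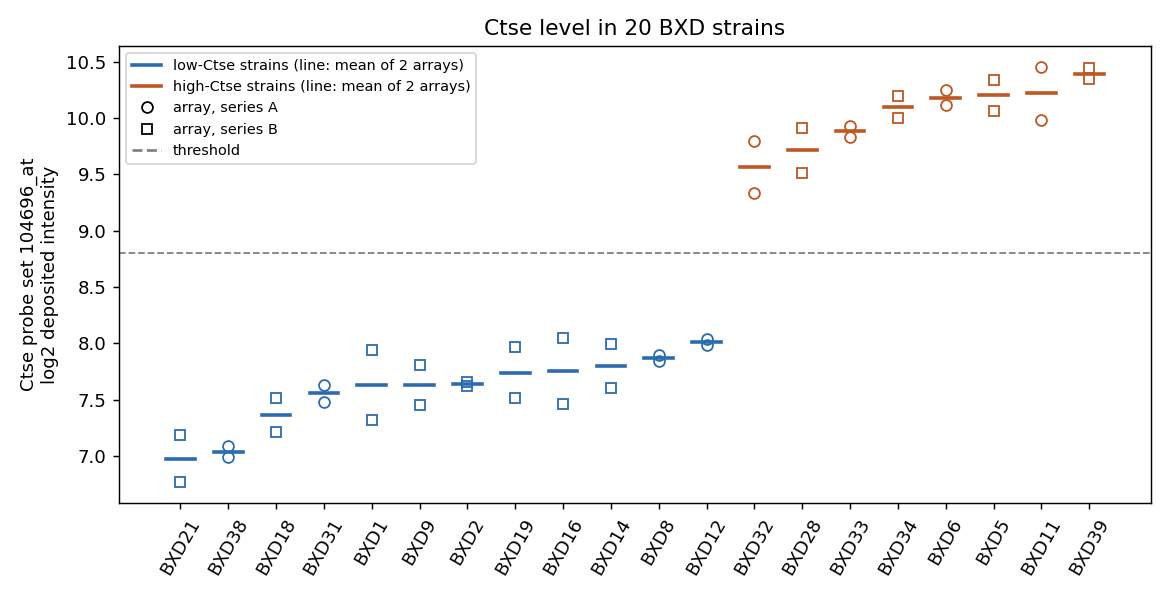
Log2 deposited intensity of Ctse probe set 104696_at (y axis) on the 2 arrays of 20 strains (x axis, ordered by mean within group), with low-Ctse strains in blue at the left and high-Ctse strains in orange at the right; circles are arrays of series A, squares arrays of series B, short lines strain means and the dashed line the threshold of 8.8. Strain means run between 6.98 and 8.01 in low-Ctse strains and between 9.57 and 10.39 in high-Ctse strains, with no array in between.

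The array carries 2 more probe sets for Ctse, and neither passed the test of a difference. Probe set 93860_i_at averaged 7.44 ± 0.54 (SD, n = 12) in low-Ctse strains and 7.29 ± 0.79 (n = 8) in high-Ctse strains, a fitted difference of -0.01 ± 0.18 (SE, log2, limma adjusted p = 1.00). Probe set 93861_f_at averaged 7.12 ± 0.41 in low-Ctse strains and 7.21 ± 0.26 in high-Ctse strains, a fitted difference of -0.10 ± 0.16 (adjusted p = 1.00). The difference of -2.45 (log2, low-Ctse minus high-Ctse) thus rests on 1 of 3 Ctse probe sets. Whether that probe set differs because of the amount of transcript or because of a sequence difference between the parental alleles under its probes cannot be told apart here.

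All other probe sets were then compared between the groups on strain means, with the array series as covariate. The levels that follow are log2 of quantile-normalized intensities, differences are low-Ctse minus high-Ctse, and calls are limma adjusted p below 0.05 over 7452 probe sets. Of these, 5 were called (0.0671%): 2 were higher in low-Ctse strains (0.0268%) and 3 were lower (0.0403%). They were 1 probe set of Ptprv, 2 of Csrp1, 1 of Aldh9a1 and 1 without a gene symbol. The 3 named genes all lie on chromosome 1, the chromosome of Ctse. At an unadjusted p under 0.05 there were 265 probe sets (3.56%). The median difference over all 7452 was 0.01, and the median of its size was 0.08. The p-values measure the spread between strains. For each called probe set, as for Ctse, a different amount of transcript and a sequence difference under the probes cannot be told apart, nor can fewer expressing cells and less RNA per cell in these bulk samples.

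Ptprv, which encodes a receptor-type protein tyrosine phosphatase, followed Ctse most closely. Its called probe set is of a kind in which some probes can match related sequences. Over low-Ctse strains its probe set 92662_g_at had 5.03 as the lowest, 5.72 as the median and 6.34 as the highest strain mean, and over high-Ctse strains 6.91, 7.78 and 8.05. The strain means of the groups did not overlap, which held for 2 of the 7452 probe sets (0.0268%). Single arrays did overlap: they ran between 4.99 and 7.37 in low-Ctse strains and between 6.28 and 8.26 in high-Ctse strains. BXD18 replicate 2 (7.37) was the highest array of a low-Ctse strain, and BXD32 replicate 1 (6.28) the lowest of a high-Ctse strain. Means were 5.73 ± 0.41 (SD, n = 12) in low-Ctse and 7.69 ± 0.40 (SD, n = 8) in high-Ctse strains, a fitted difference of -2.02 ± 0.16 (SE, log2, limma adjusted p = 1.51e-07), or 4.06-fold. The low-Ctse mean lay under the limit for dim probe sets, a mean log2 level of 6.00, so Ptprv entered the comparison through its level in high-Ctse strains, and the fold is against a dim level. The difference was -2.05 ± 0.23 in series A alone (adjusted p = 0.0363) and -2.0 ± 0.21 in series B alone (adjusted p = 0.00115). Over the 20 strain means, centred on their series, Ptprv had r = 0.92 with the Ctse probe set, the highest size of any named gene, as a description.

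The other Ptprv probe sets were too dim to enter the comparison. In the fit with no filter on dim probe sets, which called 1 of 12421 probe sets (0.00805%), 92661_at averaged 5.16 ± 0.31 in low-Ctse and 5.90 ± 0.62 in high-Ctse strains, a difference of -0.70 ± 0.20 that did not pass (limma adjusted p = 0.841). In the same fit 92663_at averaged 4.87 ± 0.61 in low-Ctse and 5.16 ± 0.60 in high-Ctse strains, a difference of -0.22 ± 0.26 (adjusted p = 1.00). Both differences ran the same way as that of 92662_g_at and were smaller.

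Csrp1, which encodes a LIM-domain protein of the actin cytoskeleton, was lower in low-Ctse strains by both of its probe sets. Over low-Ctse strains 92608_at had 5.43, 6.03 and 6.91 as lowest, median and highest strain mean, and over high-Ctse strains 6.72, 7.14 and 7.85. Single arrays of 92608_at ran between 4.10 and 7.24 in low-Ctse strains and between 6.22 and 7.91 in high-Ctse strains. The lowest strain mean was that of BXD16, whose arrays read 6.8 and 4.1, the latter near the floor of 4. The fitted difference was -1.07 ± 0.17 (SE, log2, limma adjusted p = 0.0127), or 2.11-fold. Probe set 160065_s_at, in which some probes can match related sequences, had 6.45, 6.88 and 7.71 over low-Ctse strains. Over high-Ctse strains it had 7.31, 7.81 and 8.16, with a difference of -0.84 ± 0.14 (adjusted p = 0.0151). The groups overlapped at both probe sets, and BXD19 was the low-Ctse strain within the high-Ctse range each time, at 6.91 and 7.71. BXD5 and BXD39 were the high-Ctse strains within the low-Ctse range at both, joined by BXD32 at 160065_s_at.
Within series A the differences of the 2 probe sets were -1.46 ± 0.20 and -1.03 ± 0.21 (SE, log2), and within series B they were -0.79 ± 0.22 and -0.70 ± 0.17, none of which passed alone (limma adjusted p between 0.0856 and 0.857). The Csrp1 calls also ended with no filter on dim probe sets (limma adjusted p = 0.0588 for both) and with BXD18 replicate 2 or BXD9 replicate 2 left out (adjusted p up to 0.181 for 92608_at and 0.0623 for 160065_s_at). Leaving out BXD16 replicate 1 or BXD5 replicate 1 ended the call of 92608_at as well, as did the continuous Ctse level in place of the groups (adjusted p = 0.0793).

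Aldh9a1 ran the opposite way. It encodes an aldehyde dehydrogenase of carnitine synthesis, and its probe set is of a kind in which some probes can match related sequences. Its probe set 96243_f_at had 8.31, 8.95 and 9.59 as lowest, median and highest strain mean in low-Ctse strains, and 7.22, 7.53 and 8.78 in high-Ctse strains. BXD6 (8.78) and BXD28 (8.48) were the high-Ctse strains within the range of the low-Ctse strains, and the other 6 lay at 8.14 or below, under all low-Ctse strains. The fitted difference was 1.09 ± 0.20 (SE, log2, limma adjusted p = 0.0400), 2.13-fold higher in low-Ctse strains. It was 1.2 ± 0.32 in series A and 1.01 ± 0.24 in series B, with adjusted p = 0.850 and 0.496. The call ended in 15 of 20 fits that left out 1 strain, with adjusted p between 0.00230 without BXD6 and 0.155. It also ended with no filter (adjusted p = 0.195), with the continuous Ctse level (0.0793) and in 7 of 40 fits that left out 1 array (up to 0.145).

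Probe set 162195_i_at has no gene symbol in the platform table. It had 6.76, 6.96 and 7.41 as lowest, median and highest strain mean in low-Ctse strains and 4.68, 6.15 and 6.57 in high-Ctse strains, so the strain means did not overlap. The difference was 0.87 ± 0.17 (SE, log2, limma adjusted p = 0.0480). BXD11, at 4.94 and 4.43, lay far below the other high-Ctse strains, and without it the difference was 0.71 ± 0.10 (adjusted p = 0.00248). The call ended in 16 of 20 fits that left out 1 strain (adjusted p up to 0.184), in 20 of 40 that left out 1 array, without quantile normalization (0.0616), with no filter (0.195), with the continuous Ctse level (0.0793) and with a mean-variance trend in limma's eBayes step (0.0565). The difference was 1.16 ± 0.30 in series A alone and 0.66 ± 0.15 in series B alone, with adjusted p = 0.850 and 0.496.

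**Figure D2:**
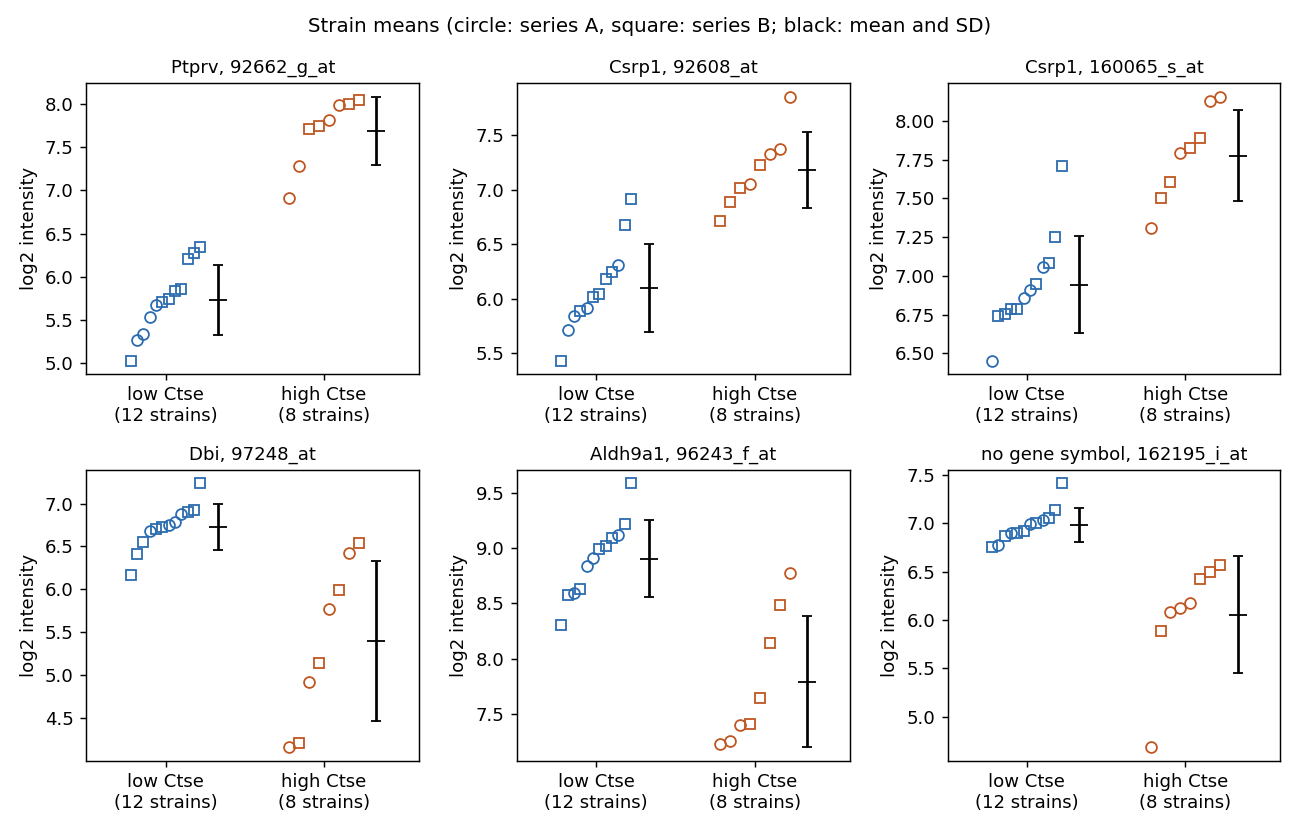
Strain means in log2 intensity (y axes) of 6 probe sets, with 12 low-Ctse strains in blue at the left and 8 high-Ctse strains in orange at the right of each panel; circles are strains of series A, squares strains of series B, and black bars the mean and SD. Ptprv and the probe set without a symbol have no overlap, Csrp1 is lower in low-Ctse strains with BXD19 among the high-Ctse values, and Dbi and Aldh9a1 are spread widely in high-Ctse strains.

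The next question was whether the genes near Ctse follow it. Neighbours were counted in the gene order of chromosome 1 over the 315 genes with a tested probe set, each by its brightest one, and 1 step is 1 tested gene. A step is not a fixed length of chromosome, so steps do not rank genes on different sides of Ctse by distance in bases. None of the 20 nearest genes, 10 on each side, was called by limma, and none had an unadjusted p under 0.05, against 3 of 5623 genes called (0.0534%) and 192 with an unadjusted p under 0.05 (3.41%) over the whole genome. Toward the centromere these were Rassf5, Eif2d, Mapkapk2, Pigr, Cxcr4, Lct, Ubxn4, R3hdm1, Actr3 and Ddx18, in order of distance. Away from it they were Slc41a1, Nucks1, Cdk18, Mdm4, Ppp1r15b, Sox13, Snrpe, Btg2, Mybph and Myog. Their differences lay between -0.23 and 0.26. The 2 nearest were the Ras-association gene Rassf5 (-0.10 ± 0.08, SE) and the magnesium transporter gene Slc41a1 (0.02 ± 0.11). Cxcr4, the chemokine receptor that retains stem cells in marrow, had the smallest p of the 20 (difference -0.23 ± 0.13, limma adjusted p = 1.00). The median size of a difference among the 20 was 0.05, against 0.08 over all tested genes.

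Both called neighbours lay further out in steps, on the side away from the centromere. Ptprv was 17 steps and Csrp1 21 steps from Ctse, with Gpr37l1, Elf3 and Timm17a between them, none of which was called (limma adjusted p = 1.00 each, with differences of -0.10, -0.24 and -0.06). In the window of 30 tested genes on each side, 2 of 60 genes were called (3.33%, against 0.0534% of all genes) and 8 had an unadjusted p under 0.05. The other 6 of these were D2hgdh, Nifk, Dbi, En1, Kdm5b and Ube2t. Among them Kdm5b, a histone demethylase gene, averaged 7.45 ± 0.17 in low-Ctse and 7.11 ± 0.28 in high-Ctse strains (difference 0.37 ± 0.10, adjusted p = 0.616). Nifk averaged 7.64 ± 0.28 in low-Ctse and 8.12 ± 0.36 in high-Ctse strains (difference -0.46 ± 0.14, adjusted p = 0.856). Of these 8 genes, 4 had positive and 4 had negative differences.

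Dbi came closest to the threshold without passing it. It encodes an acyl-CoA binding protein and lay 14 steps from Ctse toward the centromere. Probe set 97248_at had 6.17, 6.74 and 7.23 as lowest, median and highest strain mean in low-Ctse strains, and 4.16, 5.46 and 6.54 in high-Ctse strains. The high-Ctse strains were spread over more than 2 log2 units: BXD6 (4.16) and BXD5 (4.21) lay near the floor of 4, and BXD33 (6.42) and BXD34 (6.54) lay among the low-Ctse strains. The difference was 1.33 ± 0.27 (SE, log2, limma adjusted p = 0.0891). The high-Ctse mean of 5.39 lay under the limit of 6.00 and 2 arrays of high-Ctse strains were at the floor, so Dbi entered the comparison through its level in low-Ctse strains. It passed without BXD33 or without BXD34 (adjusted p down to 0.0214), with a floor of 32 (difference 1.02, adjusted p = 0.0277) and with BXD40 and BXD42 included (0.0190), and it was further from passing with no filter on dim probe sets (0.446).

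Aldh9a1 lay 73 steps from Ctse, outside the window. Counted in steps, 2 of 40 genes were called at 11 to 30 steps, 0 of 40 at 31 to 50 steps (1 with an unadjusted p under 0.05) and 1 of 215 beyond. Over the whole of chromosome 1, 25 of 315 genes had an unadjusted p under 0.05 (7.94%), against 167 of 5301 (3.15%) on the other chromosomes, none of which held a called gene by limma. Of the 30 probe sets with the smallest p, 27 had a symbol and 13 of these lay on chromosome 1, which holds 5.56% of the named probe sets tested. Beside those already given, they included Npl, the sialic acid lyase gene (7.17 in low-Ctse and 6.45 in high-Ctse strains, limma adjusted p = 0.529) and Creg1, a gene of a secreted glycoprotein (8.21 in low-Ctse and 7.60 in high-Ctse strains, adjusted p = 0.678), neither of which was called. Genes of a chromosome are inherited in blocks and are not independent.

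**Figure D3:**
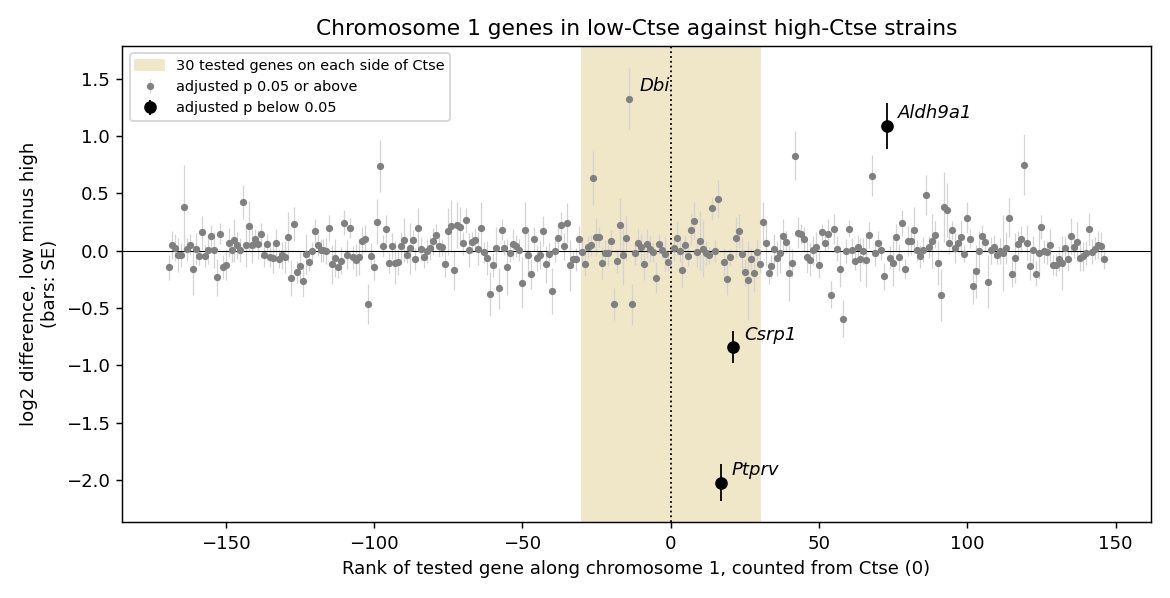
Fitted log2 difference, low-Ctse minus high-Ctse strains (y axis, bars are SE), of 315 tested genes in their order along chromosome 1, counted in genes from Ctse at 0 (x axis), with called genes in black and the window of 30 genes on each side shaded. Ptprv and Csrp1 stand below 0 at 17 and 21 steps and Aldh9a1 above 0 at 73 steps, while the 20 nearest genes lie between -0.23 and 0.26.

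Each strain was placed by whether its mean lay on its own group's side of the midpoint of the group means. For Ptprv all 20 strains lay on their own side, for 162195_i_at 19, with BXD28 past it, and for Dbi 18. Csrp1 had 18 by each probe set, with BXD18 and BXD19 past the midpoint at 92608_at and BXD19 and BXD32 at 160065_s_at. For Aldh9a1 the number was 17, with BXD6, BXD9 and BXD28 past it. For Dbi the strains past it were BXD33 and BXD34. BXD19 was past the midpoint at both Csrp1 probe sets, and BXD28 at both Aldh9a1 and 162195_i_at. The midpoints were set from the groups, so these counts are descriptions.

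**Figure D4:**
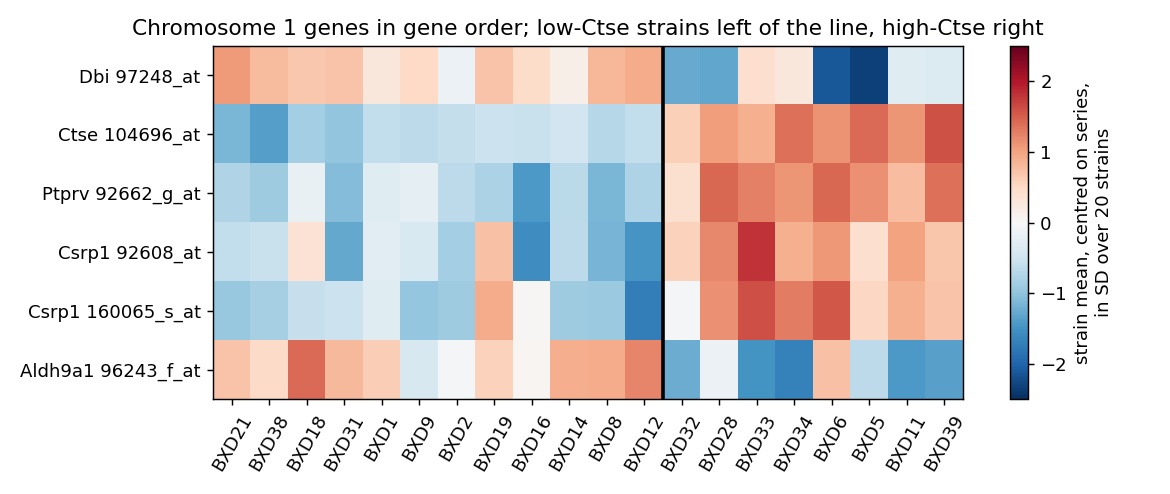
Strain means of 6 chromosome 1 probe sets (rows, in gene order) over 20 strains (columns, by Ctse level), centred on the array series and divided by the SD over strains (colour scale), with low-Ctse strains left of the black line and high-Ctse strains right of it. Ctse and Ptprv change at the same line, BXD19 has high Csrp1 among low-Ctse strains, BXD33 and BXD34 have high Dbi and BXD6 has high Aldh9a1 among high-Ctse strains.

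The 10 named genes whose strain pattern was most like that of the Ctse probe set were ranked by the size of r over the 20 strain means centred on the series. After Ptprv came Csrp1 (0.80, 160065_s_at), the phosphatase gene Ptpn13 on chromosome 5 (-0.75), Aldh9a1 (-0.75), the adhesion molecule gene Mcam on chromosome 9 (0.73) and Dbi (-0.72). The helicase gene Ddx27 (0.70), the centromeric histone gene Cenpa (-0.68), Dnttip2 (0.68) and the mitochondrial phosphate carrier gene Slc25a3 (-0.68) completed the 10. The median size of r over all 7452 probe sets was 0.16. Of the 6 genes on other chromosomes, Mcam had the smallest adjusted p in the comparison, with 5.92 ± 0.32 in low-Ctse and 6.46 ± 0.38 in high-Ctse strains (difference -0.60 ± 0.14, limma adjusted p = 0.401). Ptpn13 differed by 0.25 ± 0.08 (adjusted p = 0.859) and its groups overlapped in 6 low-Ctse and 5 high-Ctse strains. Slc25a3 passed with BXD6 left out (adjusted p = 0.0467), and 0.678 was its value with all strains. Its arrays lay far apart in several low-Ctse strains, such as BXD14 (5.50 and 8.34) and BXD19 (5.52 and 7.61). In others, such as BXD31 (7.27 and 7.20), they were close, so its strain means are not equally firm. The low-Ctse mean of Mcam (5.92) and the high-Ctse mean of Slc25a3 (5.98) lay under the limit of 6.00 for dim probe sets. Each of these genes thus entered the comparison through its level in the other group.

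The low against high difference did not vary detectably with the array series after adjustment over all probe sets. Of 7452 probe sets, 0 passed the interaction of group and series by limma (0.0%), and 316 had an unadjusted p under 0.05 (4.24%). For Ptprv the difference in series B minus that in series A was 0.05 (interaction adjusted p = 0.999). For Csrp1 it was 0.67 at 92608_at and 0.33 at 160065_s_at (adjusted p = 0.957 for both), and for Aldh9a1 -0.19 (adjusted p = 0.973).

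Genes that work beside cathepsin E were taken from lists. Of 12 tested genes for other cathepsins and lysosomal proteases, 0 were called and 0 had an unadjusted p under 0.05, with a median difference of 0.06. Ctsd, the main lysosomal aspartic protease, averaged 9.82 ± 0.18 in low-Ctse and 9.74 ± 0.09 in high-Ctse strains. Ctsb, an abundant lysosomal cysteine protease, averaged 9.46 ± 0.20 in low-Ctse and 9.41 ± 0.20 in high-Ctse strains. The aspartic protease gene Napsa had the smallest p of the list (difference 0.25 ± 0.18, limma adjusted p = 1.00). None of 5 cathepsin inhibitors and none of 17 genes of lysosomal membranes and acidification was called by limma, and none had an unadjusted p under 0.05.

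Of 9 tested genes of class II antigen presentation, 0 were called by limma and 2 had an unadjusted p under 0.05, against 3.41% of all tested genes. H2-Aa averaged 5.55 ± 1.18 (SD, n = 12) in low-Ctse and 7.0 ± 1.57 (SD, n = 8) in high-Ctse strains, a difference of -1.51 ± 0.57 (SE, adjusted p = 1.00), and its groups overlapped widely. The low-Ctse mean of H2-Aa lay under the limit of 6.00, with the lowest strain mean at the floor of 4, so it too entered through its level in high-Ctse strains. H2-Eb1 averaged 7.88 ± 0.24 in low-Ctse and 8.11 ± 0.19 in high-Ctse strains (difference -0.26 ± 0.10, adjusted p = 1.00). The invariant chain gene Cd74 averaged 8.12 ± 0.22 in low-Ctse and 8.26 ± 0.24 in high-Ctse strains. H2-Oa (difference 0.10 ± 0.16, SE) and H2-DMa (0.02 ± 0.20) ran the other way, and the median difference of the list was -0.09.

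Markers of the sorted cells and of other blood cells were compared likewise. Kit, the receptor used in the sort, averaged 9.47 ± 0.37 in low-Ctse and 9.50 ± 0.45 in high-Ctse strains, Cd34 8.74 ± 0.26 and 8.72 ± 0.27, and Flt3 11.03 ± 0.39 and 10.98 ± 0.37, in the same order. The gene of Sca-1, Ly6a, had no probe set with 1 symbol. None of 10 stem and progenitor surface molecules and none of 18 transcription factors was called. Among 7 erythroid markers 0 were called by limma. The alpha-globin gene Hba-a1, with the smallest p of the list, averaged 8.91 ± 0.87 in low-Ctse and 9.73 ± 1.34 in high-Ctse strains (difference -0.80 ± 0.46, adjusted p = 1.00). Gata1 (difference 0.11 ± 0.15, SE), Tfrc (0.06 ± 0.11) and Rhag (0.02 ± 0.11) ran the other way, and the median difference of the list was -0.05. The mean level of the erythroid list, Hba-a1 included, ran between 8.08 and 8.70 in low-Ctse and between 8.27 and 8.99 in high-Ctse strains. Among 11 B cell markers 0 were called. Igha, an immunoglobulin heavy chain gene with the smallest p of the list, averaged 8.05 ± 1.25 in low-Ctse and 9.57 ± 0.65 in high-Ctse strains (difference -1.35 ± 0.40, limma adjusted p = 0.856). Dntt (difference 0.31 ± 0.21, SE), Blnk (0.06 ± 0.14) and Igll1 (0.05 ± 0.11) ran the other way, and the median difference of the list was -0.12. The mean level of the B cell list, Igha included, ran between 7.85 and 8.56 in low-Ctse and between 8.23 and 8.91 in high-Ctse strains. Igha was the only list gene called in any of the 72 alternatives, with single arrays and strain as a random block (limma adjusted p = 0.0495). In that fit the correlation between arrays of a strain was 0.07.

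Over all 17 lists, 0 of 168 tested genes were called by limma, and 8 had an unadjusted p under 0.05 (4.76%, against 3.41% of all tested genes). The lists of megakaryocyte, neutrophil and monocyte, T and NK cell, mast cell, dendritic cell, cell cycle, interferon and immediate early genes held none called in any of the fits. The 8 were H2-Aa, H2-Eb1, Igha, Elane, Iigp1, Gnb4 and the cell cycle genes Mcm4 and Bub1. The cell cycle genes differed in sign, with 0.27 ± 0.09 (SE) for Mcm4 and -1.37 ± 0.51 for Bub1 (limma adjusted p = 1.00 for both). H2-Ea, Hars and Gnb4 had been listed because they split the strains of this panel widely. The share of 4.76% thus counts 1 gene, Gnb4, that was picked for its spread between strains. H2-Ea averaged 6.86 ± 2.04 in low-Ctse and 8.22 ± 1.62 in high-Ctse strains and Hars 6.11 ± 1.87 and 7.37 ± 1.96 in the same order, with 12 and 13 of 20 strains on their own side of the midpoint. Gnb4, a G protein subunit gene, averaged 8.05 ± 1.24 in low-Ctse and 6.47 ± 1.58 in high-Ctse strains (difference 1.65 ± 0.58, unadjusted p = 0.00982, limma adjusted p = 1.00), with 15 of 20 strains on their own side.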

How the data were processed

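Expression was measured on 44 one-colour Affymetrix MG_U74Av2 arrays, of which 40 were used. The authors' deposited values are intensities on a linear scale for 12488 probe sets. Their 2% trimmed mean lay between 200.071 and 200.092 on every array, that is, array brightness was already equalised. Which software summarised the probes is not given in the sources used here. Scanner settings were left unread. No pair of arrays held identical values.

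Strains were grouped on log2 of the deposited intensities, floored at 16. For the comparison the floored log2 values were quantile normalized, since array medians ranged from 6.55 to 6.83. The 66 control probe sets were left out, as were probe sets with a mean log2 under the 40th percentile (6.00) and the probe set that made the groups, which left 7452. The 2 arrays of a strain were averaged and strains were compared with limma 3.58.1 in R 4.3.3, with the array series as covariate, 17 residual and 4.079 prior degrees of freedom, and Benjamini-Hochberg adjustment over all 7452. On simulated data the script was tested before use. The labels do not name the pool behind an array. The number of strains limits the precision of every value, and the files hold no detection calls.

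A single symbol was listed for 10833 of 12422 probe sets, several for 396 and no symbol for 1193. Names were updated through Entrez identifiers in the RefSeq gene table of GRCm38.p6 (10817 matched), which also gave the gene order. Distances between genes in bases were not computed from it. By the array maker's naming, suffixes such as f, g and s mark probe sets in which some probes can match related sequences.

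Named genes were the called ones, the 10 nearest tested genes on each side of Ctse, called genes within 30 on each side, the 10 with the highest size of r, the other Ctse probe sets, called list members, and H2-Ea, Hars and Gnb4. Further genes are named as examples chosen after their values were seen. The grouping, the lists and these rules were chosen with earlier results of these data known. Alternatives varied the normalization, the floor, the filter, the series covariate, the series used, the grouping, the strains and the arrays.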

Additional observations from a re-analysis of the deposited data

Results flagged for a closer look

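Among 13 probe sets checked in the 8 high-Ctse strains, 2 had a strain far from the others, and chance gives about 1 in 20. At 162195_i_at, which has no gene symbol, BXD11 had a strain mean of 4.68, and the other high-Ctse strains lay between 5.89 and 6.57. At Slc25a3, the mitochondrial phosphate carrier gene, BXD6 had a mean of 7.26 (log2), and the others lay between 5.58 and 6.10. The low-Ctse group, with 12 strains, is over the size at which this check applies. Causes were not tested.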

How the results depend on the processing

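The call of Ptprv held in all 72 alternatives to the comparison, with adjusted p between 6.35e-09 and 0.0363 (limma). The alternative with groups from the quantile-normalized Ctse level gave the same groups, so it repeated the comparison and adds no check. The calls of Csrp1 held in 64 (92608_at) and 67 (160065_s_at) of them, that of Aldh9a1 in 46 and that of 162195_i_at in 30. No difference of these 5 probe sets changed sign. Against 5 called probe sets, 8 were called with single arrays and strain as a random block, 2 with the continuous Ctse level, and 1 with no filter on dim probe sets, in series A alone and in series B alone. The fit on single arrays had 37 residual degrees of freedom, against 17, and a fitted correlation of 0.07 between arrays of a strain. The count ran from 1 to 6 when 1 array was left out and from 3 to 7 when 1 strain was. It was 1 without BXD18 replicate 2 or BXD9 replicate 2, 2 without BXD16 replicate 1 or BXD5 replicate 1, and 3 without BXD31 replicate 2 or BXD2 replicate 1. Against 2 called genes within 30 steps of Ctse, 1 was called with no filter, in series A alone and in series B alone. A window of 10 on each side held 0. With Dbi added, 3 were called with a floor of 32, with single arrays and strain as a random block, and with BXD40 and BXD42 included. The count was 1 to 3 without 1 array, with 1 without BXD18 replicate 2 or BXD9 replicate 2. Without 1 strain it was 2 to 3. The filter and the single series differ by construction in the probe sets or strains tested, and the other causes were not tested. Probe sets called in an alternative but not in the comparison itself were of Dbi (9 alternatives), Creg1 (2), Igha (1) and Slc25a3 (1). None of the 20 nearest genes and neither further Ctse probe set was called in any of the 72. No paired analysis was possible because the replicate numbers only name the arrays of a strain in the order of deposit.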

Other observations

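The strains left out, BXD40 and BXD42, were also low at the Ctse probe set, with 8.07 and 7.42 on the arrays labelled BXD40 and 7.38 and 7.86 on those labelled BXD42 (log2 deposited intensity). Their Ptprv levels, in log2 of quantile-normalized intensity, were 5.12 and 6.30 for BXD40 and 5.35 and 5.24 for BXD42, and single arrays of low-Ctse strains lay between 4.99 and 7.37. Csrp1 at 160065_s_at read 6.46 and 6.94 for BXD40 and 6.96 and 6.54 for BXD42. Aldh9a1 read 8.94 and 8.07 for BXD40 and 8.45 and 9.62 for BXD42, and single arrays of low-Ctse strains lay between 8.05 and 9.70. Dbi read 7.11 and 6.36 for BXD40 and 7.20 and 6.83 for BXD42, and single arrays of low-Ctse strains lay between 5.56 and 7.35.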
